A study of Mus musculus with 8 samples.

Results

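The coupling apparatus of the sperm neck was followed through 9 genes, Spata6, Pmfbp1, Tsga10, Cntrob, Cntln, Oaz3, Cetn1, Cep112 and Ccdc38. They were taken by name from the 17127 genes of the deposited table, and all 9 were present and passed the filter on low values. Whole testes of 4-month-old wild-type males and of Iqch-/- males, called Iqch mutant below, were sequenced as RNA-seq libraries with the TruSeq kit, 1 mouse per library. The mutation was a small frameshifting deletion made with CRISPR-Cas9 in zygotes of the C57BL/6xCBA hybrid B6CBAF1. It was carried in homozygosity in every cell of the animal, so it is not limited to germ cells, and the wild-type controls carried no edited allele. Of the 8 samples, 7 were analysed here, namely wild type 1 to 4 and mutants 1, 2 and 4. The authors set a mutant library aside as an outlier, and that of mutant 3 was not used here. The labels do not say from which edited line each mutant came. A figure legend of the paper names the mutant RNA-seq coverage of Iqch as data of the line Iqchmu7.

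The neck joins the sperm head to the tail. During spermatid elongation, the centrioles dock at the nuclear envelope and the capitulum and segmented columns are built around them. Proteins of this coupling apparatus tie the nucleus, the centriolar region and the outer dense fibres together, and their loss is known to give headless or decapitated sperm. Many of the genes are used mainly by male germ cells, while Cntrob and Cntln also serve the centrosomes of other cells.

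Expression of the targeted gene was checked first. Iqch ran from 193 to 217 CPM (counts of a gene for each 1000000 counted in its library) in the wild type and from 64.8 to 69.2 CPM in the mutants, with no overlap. Its log2 fold change was -1.63 (SE 0.050). Libraries held 32064384 to 37551057 reads if 1 step of the deposited values is 1 read. Fold changes below are mutant over wild type on the log2(CPM + 0.1) scale, tested with limma across 17126 genes, and a gene was called when its Benjamini-Hochberg false discovery rate (FDR) was below 0.01.

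In Iqch mutant testes, 7 of the 9 neck genes were called lower and none higher by limma on the deposited CPM. At an unadjusted p under 0.05, 1 gene, Cntrob, was higher on that scale. Over all genes tested on the deposited CPM, 14.2% were called lower, 36.3% higher and 50.4% in either direction. With each library centred on elongating spermatid markers (described below) 0 neck genes were called lower, where 198 of all 17126 genes were. The summed level of the 9 genes was 4369 ± 77.1 CPM in the wild type (SD, n = 4) and 3319 ± 61.2 CPM in the mutants (SD, n = 3). In the same 7 genes every mutant library lay below every wild-type library, which held for 19.5% of all genes. The 7 genes were Oaz3, Pmfbp1, Cep112, Spata6, Ccdc38, Cetn1 and Tsga10, and the remaining ones, Cntrob and Cntln, had overlapping groups. The median log2 fold change of the 9 genes was -0.31, against 0.12 over all genes. In a whole testis, fewer spermatids and less RNA per spermatid cannot be told apart.

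**Figure D1:**
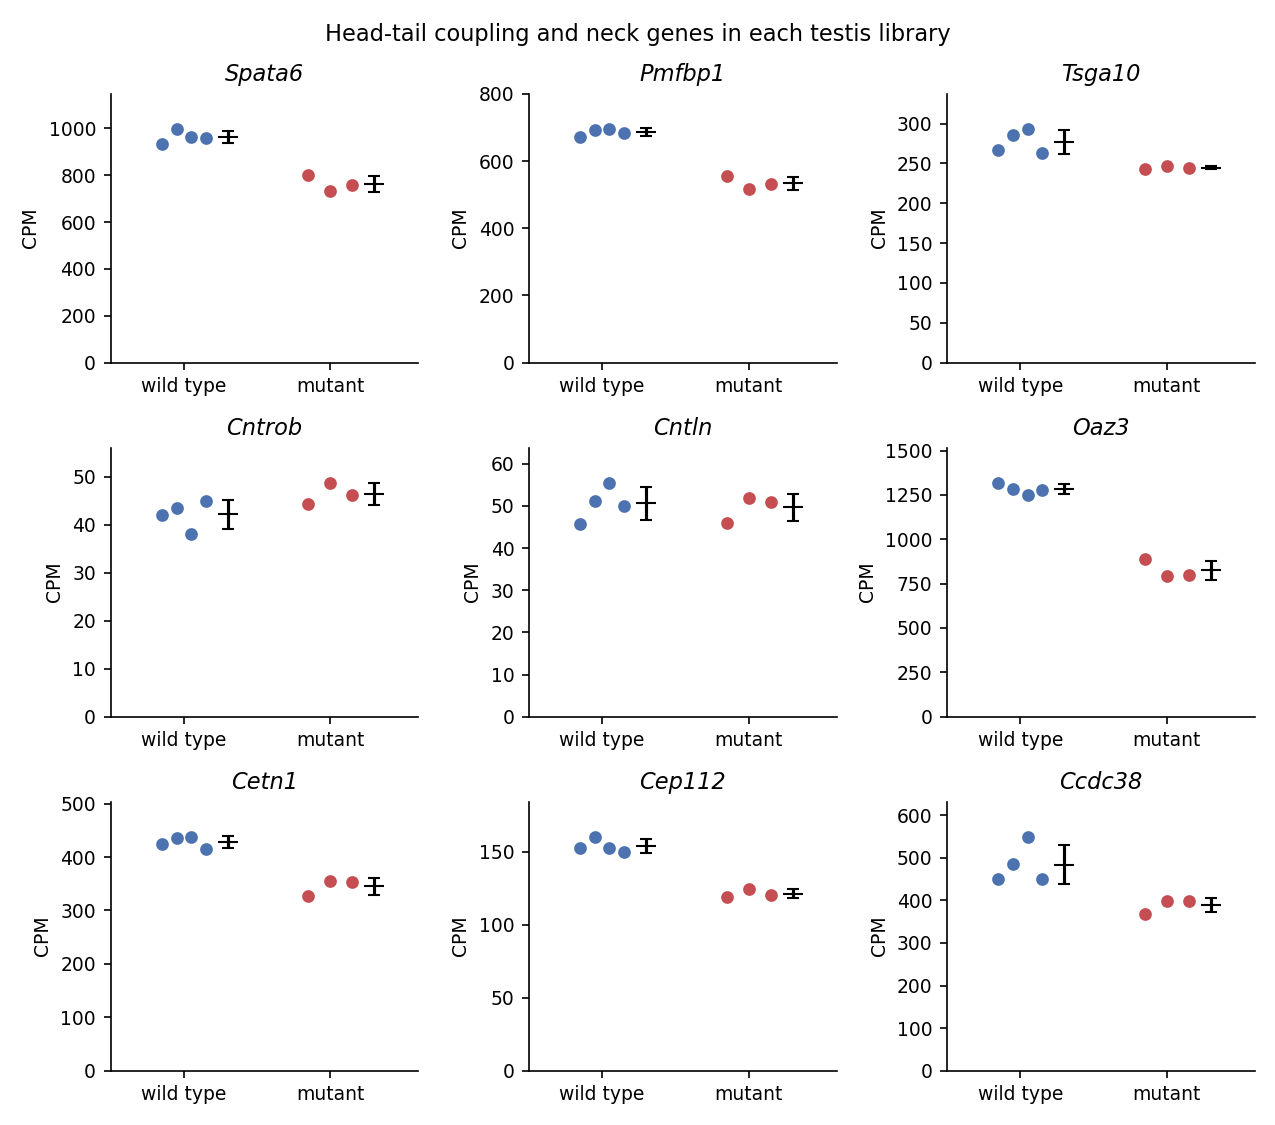
CPM of each gene in each testis library (y axis, from 0), with wild type in blue and Iqch mutant in red, and the bar beside the points giving the mean and SD (n = 4 and n = 3). On the deposited CPM the mutant points lie below all wild-type points in 7 panels and overlap with them for Cntrob and Cntln.

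Expression levels differed widely among the 9 genes. Per kilobase of annotated exon, Oaz3 had the highest level in wild-type testes, at 297 ± 6.49 CPM per kb (SD, n = 4), followed by Cetn1 at 234 ± 5.89 and Pmfbp1 at 191 ± 3.09 CPM per kb. Ccdc38, at 112 ± 10.9, and Spata6, at 93.2 ± 2.58 CPM per kb, came next. Tsga10 stood at 18.5 ± 0.982 and Cep112 at 13.2 ± 0.397 CPM per kb. Cntrob, at 5.87 ± 0.418, and Cntln, at 4.21 ± 0.333 CPM per kb, were the lowest, 70.4-fold between the top and the bottom of the order. No neighbours in this order overlapped among the wild-type libraries. The length is the union of all annotated exons of a gene, so genes with many long isoforms are given a low value on this scale.

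The same order held for the means of the mutants, but its head closed up. Oaz3 fell to 191 ± 12.2 CPM per kb (SD, n = 3) and Cetn1 to 188 ± 8.78, and the libraries of these genes overlapped in the mutants only. The genes called lower were the 7 with the highest levels per kb, and Cntrob and Cntln, which were not called, were the lowest.

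No promoter of Pmfbp1, Cntrob, Oaz3 or Cetn1 was examined. Promoter sequences from the RefSeq table (GRCm38.p6) were examined for 5 of the 9 genes, namely Spata6, Cep112, Cntln, Tsga10 and Ccdc38. Those of Spata6 and Cep112, both lower in the mutant, and that of Cntln, which was not called, are shown. Each is the 250 bases before the annotated start nearest to that of the canonical transcript, 5′ to 3′ on the plus strand, and capitals mark the motif matches described after them. They lie at chr4:111719760-111720009 (Spata6), chr11:108425016-108425265 (Cep112) and chr4:84884059-84884308 (Cntln).
Spata6: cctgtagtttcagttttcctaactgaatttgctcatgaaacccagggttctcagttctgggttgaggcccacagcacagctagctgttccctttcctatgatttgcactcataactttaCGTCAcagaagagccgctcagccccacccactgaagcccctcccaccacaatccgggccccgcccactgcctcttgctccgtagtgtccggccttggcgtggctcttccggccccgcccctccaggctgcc
Cep112: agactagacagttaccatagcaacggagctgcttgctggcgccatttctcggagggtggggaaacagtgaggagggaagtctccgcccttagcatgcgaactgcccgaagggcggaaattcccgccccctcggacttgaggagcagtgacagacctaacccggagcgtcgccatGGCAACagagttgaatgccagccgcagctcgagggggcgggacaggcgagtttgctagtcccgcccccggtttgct
Cntln: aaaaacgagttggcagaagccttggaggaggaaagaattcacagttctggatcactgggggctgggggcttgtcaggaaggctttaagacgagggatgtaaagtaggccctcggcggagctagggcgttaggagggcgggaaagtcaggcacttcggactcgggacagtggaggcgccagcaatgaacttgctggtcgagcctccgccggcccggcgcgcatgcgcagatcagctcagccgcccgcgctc

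4 short motifs were searched on both strands of the 300-base windows, which also hold 50 bases after the start. These were TGACG, the core of cAMP response elements, the TATA box TATAAA, the CCAAT box, and GTTGCC, an arm of the X-box that RFX factors bind. Spata6 held TGACG on the minus strand (read as CGTCA above), and 20.8% of all 32851 promoters of the table held this motif. Cep112 held GTTGCC on the minus strand (read as GGCAAC), and 12.5% of all promoters held this motif on either strand. None of these motifs was found in the windows of Cntln, Tsga10 and Ccdc38 nearest to the canonical start. TATAAA and CCAAT, present in 13.6% and 37.4% of all promoters, were in none of the 5 windows. All 5 windows were rich in G and C, from 57% in Ccdc38 to 71% in Tsga10, where the median promoter had 52.7%. They held 14 (Ccdc38) to 46 (Tsga10) CG dinucleotides, with 16 in Spata6, 24 in Cep112 and 26 in Cntln, against a median of 7. A match describes the letters of a window and shows no binding.

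Among the proteins of the coupling apparatus proper, Spata6, needed to build the segmented columns and capitulum, was expressed at 934, 999, 962 and 960 CPM in wild type 1 to 4. The mutants held 799, 733 and 758 CPM, all below the lowest wild-type library. Spata6 fell by 0.34 on the log2 scale (SE 0.041, 95% interval -0.42 to -0.25, FDR 1.3e-05), to 79.2% of the wild-type mean. The gene (ENSMUSG00000034401) lies on the plus strand at chr4:111577133-111690054 in GRCm39, the build of all gene positions below, with 13 exons in its canonical transcript.

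Pmfbp1, a partner of the coupling proteins at the neck, gave 671, 692, 697 and 685 CPM in the wild type. Its mutant values were 554, 516 and 531 CPM, well separated from a wild-type group whose SD was 11.1 CPM. The log2 fold change of Pmfbp1 was -0.36 (SE 0.037, 95% interval -0.44 to -0.28, FDR 3.4e-06). Its gene (ENSMUSG00000031727; chr8:110220659-110269272, plus strand, 21 exons) showed the smallest standard error of the 9.

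Cntln encodes centlein, a centrosomal protein known to link Pmfbp1 to the nuclear side of the apparatus. It was measured at 45.8, 51.1, 55.5 and 50.1 CPM in the wild type and at 46.1, 52.0 and 51.0 CPM in the mutants. The groups overlapped almost wholly. Its log2 fold change was -0.03 (SE 0.068, FDR 0.76), with a 95% interval of -0.17 to 0.12 that leaves out a fall as large as that estimated for Pmfbp1 or Spata6. Cntln (ENSMUSG00000038070) spans chr4:84802514-85050160 on the plus strand.

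Tsga10, a testis protein of the tail sheaths and the head-tail junction, gave 267, 285, 294 and 263 CPM in the wild type. The 3 mutants were close together, at 243, 246 and 244 CPM, just under the lowest wild-type library. Tsga10 fell by 0.18 on the log2 scale (SE 0.045, FDR 0.0038), the smallest change among the genes called. Its call did not hold at an FDR of 0.01 when wild type 2, mutant 1, mutant 2 or mutant 4 was left out, with log2 fold changes of -0.17, -0.17, -0.19 and -0.18 and FDRs of 0.015, 0.013, 0.011 and 0.015. Tsga10 (ENSMUSG00000060771) lies at chr1:37793637-37905510 on the minus strand.

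Of the centriolar genes of the neck, Cetn1 and Cep112 were lower and Cntrob was not called. Cetn1, the centrin of male germ cells, was measured at 425, 435, 438 and 414 CPM in the wild type and at 327, 356 and 354 CPM in the mutants. All mutants were lower than all wild types, and Cetn1 (ENSMUSG00000050996) fell by 0.31 on the log2 scale (SE 0.042, FDR 3.4e-05).

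Cep112, which encodes a centrosomal coiled-coil protein, gave 153, 161, 153 and 150 CPM in the wild type. The mutant libraries held 119, 125 and 121 CPM, again with no overlap. The log2 fold change of Cep112 was -0.34 (SE 0.042, FDR 1.6e-05), close to those of Spata6 and Pmfbp1. Cep112 (ENSMUSG00000020728; chr11:108315903-108754870, plus strand, 28 exons) overlaps the antisense RNA gene Cep112os1, which was measured at 24.1 CPM in the wild type and had a log2 fold change of -0.12 (FDR 0.21).

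Cntrob encodes centrobin, a centriole protein whose mutation in the rat detaches sperm heads. It stood at 42.0, 43.6, 38.0 and 45.0 CPM in the wild type and at 44.4, 48.8 and 46.1 CPM in the mutants. The mutant mean was the higher, but the lowest mutant lay below the highest wild type. Its log2 fold change of 0.14 (SE 0.065, 95% interval 0.00 to 0.28) missed the threshold (FDR 0.074), and it ranged from 0.092 without wild type 3 to 0.17 without wild type 4. Cntrob (ENSMUSG00000032782) lies at chr11:69190313-69214731 on the minus strand.

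The largest change among the 9 genes was that of Oaz3, the germ-cell antizyme, an inhibitor of ornithine decarboxylase whose loss separates sperm heads from tails. Wild-type testes held 1319, 1282, 1251 and 1280 CPM of Oaz3 and the mutants 886, 794 and 796 CPM. The mutants thus held 64.3% of the wild-type mean, 825 ± 52.6 against 1283 ± 28.1 CPM. Oaz3 fell by 0.64 on the log2 scale (SE 0.044, 95% interval -0.73 to -0.54, FDR 1.1e-07), and 3.14% of all genes had a lower log2 fold change. The gene (ENSMUSG00000028141; chr3:94339721-94351222, minus strand) overlaps Mrpl9 and Tdrkh on the other strand. These were measured at 24.5 and 36.5 CPM in the wild type and had log2 fold changes of 0.25 (FDR 0.0035) and 0.06 (FDR 0.41). As the strand setting of the counting is not given, reads of overlapping genes may have been shared.

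Ccdc38, a protein of the manchette and the developing tail, was the most variable of the 9 genes in the wild type, with 450, 486, 550 and 450 CPM. The mutants held 369, 399 and 399 CPM, all under the lowest wild type. Ccdc38 (ENSMUSG00000036168; chr10:93376487-93420189, plus strand) fell by 0.31 on the log2 scale (SE 0.064, FDR 9.9e-04).

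Changes of the genes were then set against other scalings, because the median gene was higher in the mutant on the deposited CPM. Dividing the CPM by median-of-ratios size factors moved the median over all genes from 0.12 to -0.01. The same 7 genes were lower on this scale, where 25.1% of all genes were called lower, and their log2 fold changes ran from -0.77 (Oaz3) to -0.31 (Tsga10). Cntln then stood at -0.16 (FDR 0.045) and Cntrob at 0.01 (FDR 0.94).

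Centring each library on the mean log2 level of 8 elongating spermatid markers gave a different picture. On that scale the median gene stood at 0.72 and 87.5% of all genes were called higher. Of the neck genes 8 were called higher, from 0.24 (Pmfbp1) and 0.26 (Spata6 and Cep112) to 0.57 (Cntln) and 0.74 (Cntrob). Oaz3, at -0.04 (95% interval -0.14 to 0.06, FDR 0.43), was the one that was not called. The fall of Oaz3 was thus as large as the mean fall of those markers within its error. The falls of the other 6 genes called lower were smaller than that mean. The 8 markers themselves differed, with log2 fold changes on the deposited CPM from -0.76 (Prm3) to -0.40 (Akap4). On the centred scale 2 of them, Akap4 (0.20) and Gapdhs (0.18), were called higher and 0 lower.

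**Figure D2:**
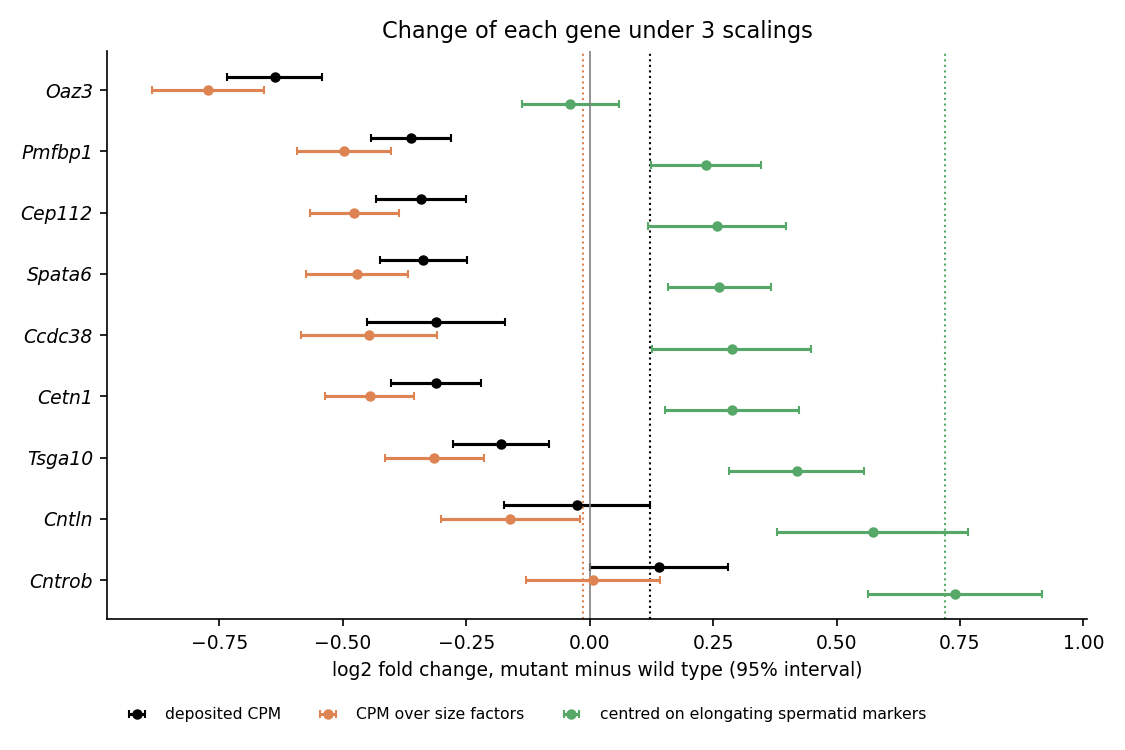
Log2 fold change of each gene, mutant minus wild type, with its 95% interval from limma (x axis), on the deposited CPM (black), after size factors (orange) and centred on 8 elongating spermatid markers (green), with dotted lines at the median of all genes on each scale. Each rescaling moves all genes by nearly the same amount, so the order from Oaz3 (-0.64 on the deposited CPM) to Cntrob (0.14) stays the same. All genes but Oaz3 lie to the right of 0 in green.

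Ratios between genes of the same library do not depend on scaling. Here 4 ratios of CPM, not divided by exon length, were compared with exact two-sided permutation tests (35 assignments of the genotype labels). Benjamini-Hochberg adjustment was made over the 4. Pmfbp1 exceeded its partner Cntln 14.7-, 13.6-, 12.5- and 13.7-fold in the wild-type libraries, and 12.0-, 9.93- and 10.4-fold in the mutants. The mutants were lower by 0.34 on the log2 scale (a difference of -0.34, exact p = 0.029, adjusted p = 0.029). Cntrob stood at 0.275, 0.271, 0.249 and 0.30 of the level of Cep112 in the wild type and at 0.374, 0.391 and 0.382 of it in the mutants, a difference of 0.48 (exact p = 0.029, adjusted p = 0.029). Thus centrobin and Cep112 transcripts changed unequally.

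Paralogs expressed in many tissues served as the other partners. Cetn1 exceeded Cetn2, the widely expressed centrin, 56.2-, 59.3-, 60.0- and 52.2-fold in the wild type and 31.4-, 33.6- and 31.6-fold in the mutants. The log2 difference was -0.81 (exact p = 0.029, adjusted p = 0.029). It joins a fall of Cetn1 by 0.31 and a rise of Cetn2 by 0.50 on the deposited CPM, the latter from 7.54 CPM in the wild type. Oaz3 exceeded Oaz1, the antizyme of most tissues, 38.3-, 37.2-, 36.0- and 37.7-fold in the wild type and 24.2-, 18.9- and 20.6-fold in the mutants. The log2 difference was -0.82 (exact p = 0.029, adjusted p = 0.029), where the log2 fold changes were -0.64 for Oaz3 and 0.18 for Oaz1. In all 4 ratios the groups were fully separated. A p of 0.029 is the smallest that 35 assignments can give, and the doubled smaller tail gives 0.057.

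**Figure D3:**
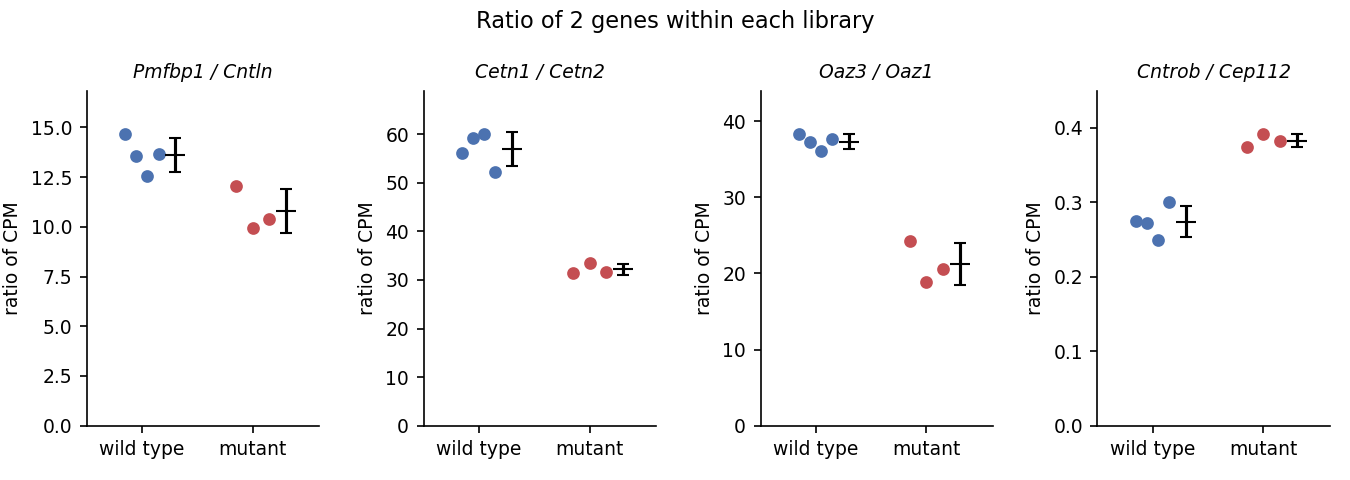
Ratio of the CPM of 2 genes within each library (y axes, from 0, linear), with wild type in blue, Iqch mutant in red and the mean and SD beside the points. Pmfbp1 over Cntln, Cetn1 over Cetn2 and Oaz3 over Oaz1 were lower in all mutants, and Cntrob over Cep112 was higher in all mutants.

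A list of 14 other genes covered the coupling apparatus, the manchette and the outer dense fibres. Of these, 9 were called lower by limma and none higher (0 at an unadjusted p under 0.05). Over all genes, 14.2% were lower and 36.3% higher. Centred on elongating spermatid markers, 12 of the 14 were higher and 0 lower, where 87.5% of all genes were higher. The median log2 fold change of the 14 genes on the deposited CPM was -0.23. After size factors 13 were lower, where 25.1% of all genes were lower. Odf1, an outer dense fibre protein whose loss decapitates sperm, fell by 0.61 on the log2 scale (FDR 9.3e-07). Spatc1, the sperm centrosome protein speriolin, fell by 0.53, the outer dense fibre gene Odf2 by 0.36 and Spata20 by 0.33. The nuclear envelope genes Sun5, Spag4 and Sun3 were not called, with log2 fold changes of -0.11, -0.17 and -0.16, and after size factors they were lower, at -0.25, -0.31 and -0.29.

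Of 33 general centriole and centrosome genes listed, 32 were tested, and 6 were called higher, 5 lower and 21 in neither direction, where 36.3% of all genes were higher and 14.2% lower. Their median log2 fold change was 0.00. After size factors 4 were higher and 13 lower, where 25.1% of all 17126 genes were lower and 8921 were called in either direction. After centring on elongating spermatid markers 31 were higher, where 87.5% of all genes were higher. Among the centrins, Cetn4 fell by 0.47 (FDR 2.8e-05) and Cetn2 rose by 0.50 (FDR 2.1e-04), from 7.54 ± 0.291 to 10.7 ± 0.405 CPM. Cetn3 had a log2 fold change of -0.12 (FDR 0.12) and was called lower after size factors, at -0.26, and higher after centring, at 0.48. Nin, which encodes ninein, rose by 1.56 from a low level of 1.47 ± 0.306 CPM, and Ofd1 and Cep97 rose by 0.48 and 0.45. Cep131, Cdk5rap2 and Cep57 fell by 0.24, 0.18 and 0.18. The call of Cep131 did not hold without wild type 2 (-0.20), mutant 2 (-0.21) or mutant 4 (-0.23), nor that of Cep57 without mutant 1 (-0.17) or mutant 4 (-0.17).

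Of 9 polyamine genes beside Oaz3, 5 were called higher and 1 lower, where 36.3% of all genes were higher and 14.2% lower. After size factors 3 were higher and 1 lower, where 25.1% of all 17126 genes were lower and 8921 were called in either direction. After centring 8 were higher and 0 lower, where 87.5% of all genes were higher. Azin2, the antizyme inhibitor of testis and brain, was the gene called lower, from 324 ± 10.9 to 207 ± 14.7 CPM (log2 fold change -0.64, FDR 2.8e-07). Sat1, which acetylates spermidine and spermine, rose by 1.52, and the synthesis genes Sms, Amd1 and Srm rose by 0.86, 0.65 and 0.42. Srm was no longer called after size factors (0.29, FDR 0.038), nor without wild type 1 (0.43), 3 (0.41) or 4 (0.40) or mutant 1 (0.42) or 4 (0.31). The other antizymes were not called, with log2 fold changes of 0.18 for Oaz1 (FDR 0.016) and 0.05 for Oaz2 (FDR 0.26). Oaz1 was called without mutant 1 (0.23).

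Cell type markers moved with the genotype as well, where 14.2% of all genes were called lower and 36.3% higher. All 8 elongating spermatid markers were called lower, with a summed level of 23255 to 24623 CPM in the wild type and 14884 to 17012 CPM in the mutants and a median log2 fold change of -0.63. Of 6 round spermatid markers 3 were lower (790 to 831 against 681 to 731 CPM), and of 8 spermatocyte markers 1 was higher and 1 lower (998 to 1026 against 926 to 998 CPM). Called higher were 5 of 8 markers of spermatogonia (146 to 158 against 203 to 231 CPM), 7 of 7 tested of Sertoli cells (984 to 1065 against 2062 to 2201 CPM), 6 of 7 of Leydig cells (1108 to 1322 against 4627 to 4772 CPM) and 6 of 6 of macrophages (51.9 to 63.0 against 201 to 233 CPM). For myoid cells 1 of 4 tested was higher (66.2 to 90.1 against 76.5 to 102 CPM) and for endothelial cells 1 of 4 (27.6 to 31.3 against 31.1 to 32.7 CPM). After size factors 6 round spermatid markers and 4 spermatocyte markers were lower, where 25.1% of all genes were lower. On that scale 1 spermatogonial marker was higher, where 8921 of all 17126 genes were called in either direction. No marker analysed was at 0 in a library. The part of these shifts in the changes of the neck genes was not tested beyond the centring on elongating spermatid markers.

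The most abundant marker of each list had a log2 fold change of 0.29 for Uchl1 in spermatogonia, -0.06 for Piwil1 in spermatocytes, -0.20 for Acrv1 in round spermatids and -0.60 for Prm2 in elongating spermatids. In the other cells it was 1.09 for Clu in Sertoli cells, 2.75 for Insl3 in Leydig cells, 0.28 for Acta2 in myoid cells, 2.34 for Lyz2 in macrophages and -0.21 for Vwf in endothelial cells. Piwil1, Acta2 and Vwf were not called. After size factors Piwil1 (-0.20) and Vwf (-0.35) were called lower. On the deposited CPM Acta2 ranged from 0.17 without mutant 2 to 0.41 without mutant 4, where it was called. The call of Uchl1 did not hold after size factors (0.16, FDR 0.084) or without wild type 2 (0.28), wild type 3 (0.23) or mutant 2 (0.23), nor that of Acrv1 without wild type 1 (-0.20), wild type 2 (-0.16) or mutant 2 (-0.15).

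**Figure D4:**
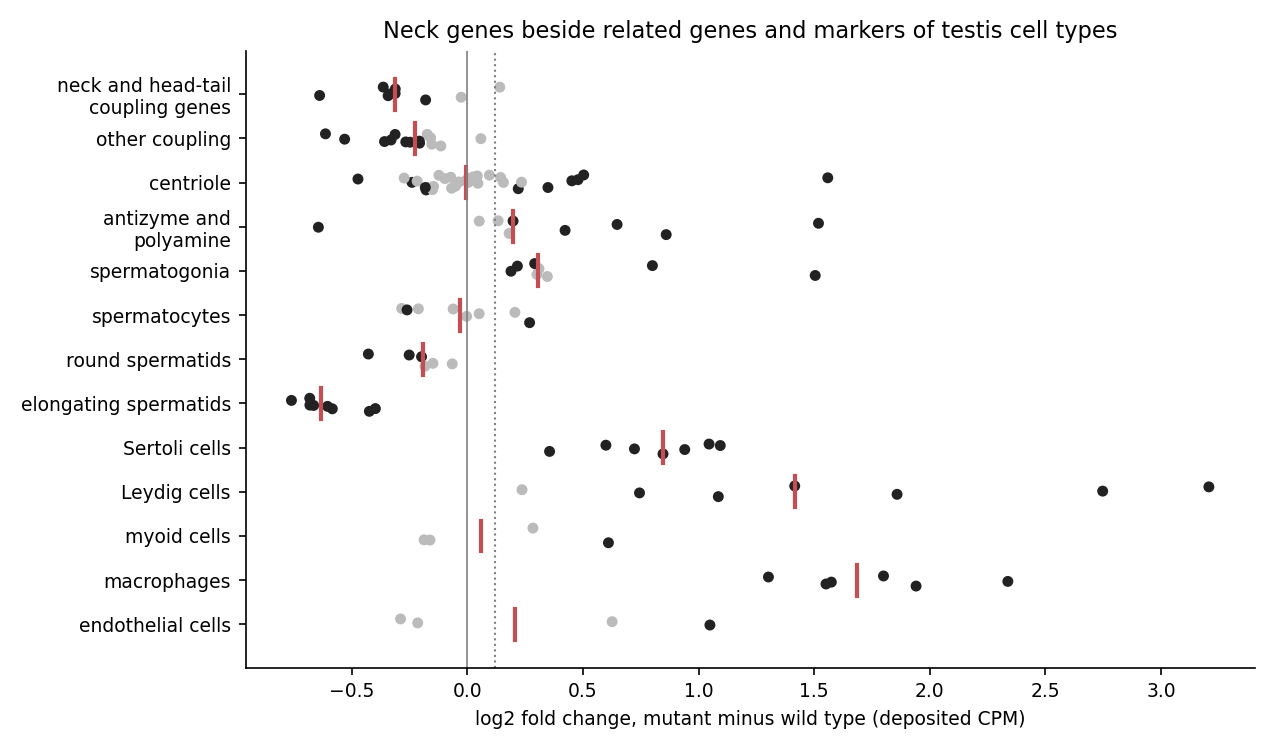
Log2 fold change on the deposited CPM, mutant minus wild type (x axis), of the 9 neck genes, the 3 related lists and the markers of 9 testis cell types, with called genes in black, other genes in grey, the median of each list as a red line and the median of all genes as a dotted line. The median of the neck genes (-0.31) lies between those of round spermatid markers (-0.19) and elongating spermatid markers (-0.63).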

How the data were processed

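Testis libraries of 4 wild-type and 3 Iqch mutant mice were analysed. The authors used Trimmomatic for trimming, Subread for mapping to GRCm39 and featureCounts for counting, removed genes that did not reach 75 reads in at least 2 libraries of a genotype and deposited CPM for 17127 genes. The authors called genes with edgeR and DESeq2. The annotation release and strand setting are not given in the sources used here. All values (100%, tolerance 0.01 of a read) were whole multiples of the step of their library, which gives 32064384 to 37551057 reads if a step is 1 read.

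Differences were tested with limma 3.58.1 (R 4.3.3), with lmFit and a mean-variance trend in eBayes, on log2(CPM + 0.1). A gene was tested if 2 libraries of a genotype reached 2.2 CPM, which left 17126 genes. Benjamini-Hochberg adjustment was made over these, and genes were called at an FDR of 0.01. The fold change scale understates changes of low genes. The fit was tested on simulated data with few genes changed, in equal numbers up and down. That test does not cover a shift of the median gene such as that of these data. Ratios of 4 gene pairs used exact permutation tests (SciPy 1.17.1). The members and lists were chosen with earlier results of these data known. Named genes were the 9 members, Iqch, the centrin and antizyme paralogs, the called genes with the largest changes in each related list (up to 4 in each direction) and the most abundant marker of each cell type. Sun5, Spag4, Sun3, Mrpl9, Tdrkh and Cep112os1 were named after their values were seen. Positions and exon lengths came from GENCODE M39 (GRCm39), which lists 17045 of the genes (99.5%), and promoters from RefSeq (GRCm38.p6). The alternatives were other pseudocounts, no minimum or a minimum of 5 CPM, size factors, centring on elongating spermatid markers, the replicate number as a block, and each library left out in turn. Figures were drawn with matplotlib 3.10.9.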

Additional observations from a re-analysis of the deposited data

Results flagged for a closer look

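Of 43 groups of wild-type libraries tested for a value far from the others with Dixon's test, 2 stood out, and chance flags about 1 in 20 groups. Amd1, an enzyme of polyamine synthesis, was at 25.64 CPM in wild type 1, below the other wild-type libraries at 27.11 to 27.18 CPM. The endothelial marker Vwf was at 18.96 CPM in wild type 4, above the others at 18.10 to 18.12 CPM. In both groups the spread was small in absolute terms, and no wild-type value of the 9 neck genes stood out in this way.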

How the results depend on the processing

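The fits with a pseudocount of 1 or 0.01 and with no minimum kept the direction and the call of all 39 named genes, and a minimum of 5 CPM did so for the 37 tested. Size factors raised the genes called lower from 2428 to 4294 and gave Oaz2 a log2 fold change of -0.083. They ended the calls of Srm and Uchl1 and added calls for Cetn3, Piwil1 and Vwf. Centring on elongating spermatid markers left 0 neck genes called lower, called 51 related genes in place of 26 and 15189 of all genes in place of 8640, with 198 lower. It turned the log2 fold changes of Spata6 to 0.26, Pmfbp1 to 0.24, Tsga10 to 0.42, Cntln to 0.57, Cetn1 to 0.29, Cep112 to 0.26 and Ccdc38 to 0.29. It also turned Cetn3 to 0.48, Cetn4 to 0.13, Spatc1 to 0.069, Odf2 to 0.24, Spata20 to 0.27, Cep131 to 0.36, Cdk5rap2 to 0.42, Cep57 to 0.42, Piwil1 to 0.54, Acrv1 to 0.40 and Vwf to 0.38. Of these, Cetn4 (FDR 0.13) and Spatc1 (FDR 0.29) were not called on that scale. The calls of Oaz3 (-0.039), Odf1 (-0.014), Azin2 (-0.044) and the centring marker Prm2 (-0.0048) ended. The upward shift of the genes follows from the scale, as the median gene rises with it. With each library left out in turn, 6 to 7 neck genes were called, all lower, with 21 to 26 related genes and 7237 to 8503 of all genes, 1934 to 2392 of them lower. Cntln, which was not called, ranged from -0.073 to 0.027, the latter without mutant 1, and was 0.020 without wild type 3. The ratio differences ran from -0.42 to -0.28 for Pmfbp1 against Cntln, from -0.86 to -0.79 for Cetn1 against Cetn2, from -0.92 to -0.74 for Oaz3 against Oaz1 and from 0.44 to 0.53 for Cntrob against Cep112, where the remaining assignments cannot reach a p of 0.05.

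Replicate numbers did not pair the libraries, as deviations of same-numbered libraries correlated at 0.026, 0.0094 and -0.098. A fit with the replicate number as a block, in which wild type 3 has no partner, called 7722 genes, gave Cntln 0.020 and Tsga10 -0.15 (FDR 0.014) and changed no other call among the 9 neck genes. It also ended the calls of Cep131 (-0.23), Srm (0.41) and Uchl1 (0.23). Tests on recovered reads with edgeR and DESeq2 were planned and not run, because after the authors' read minimum too few low values were left to establish that a step is 1 read. With 3 mutants, changes near the error of a fold change (median SE 0.081) were not detectable.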
